A study of Mus musculus with 128 samples.

Results

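The comparison described here is the deletion of Pard3 with AlfpCre at E17.5: 4 libraries of the 106 single-cell RNA libraries in the series, chosen by their column names, with 246 of the series' 4264 cells. The 2 Pard3HMKO libraries (genotype Alfp-Cre;Pard3-fl/fl) held 67 and 70 cells, and the 2 Pard3WT libraries (genotype Alfp-Cre) held 53 and 56 cells. Both groups were labelled as hepatocytes of C57BL/6 embryos with no treatment, and both carried Alfp-Cre, so the recombinase itself was present in the controls. Alfp-Cre is a transgene in which the albumin promoter and alpha-fetoprotein enhancers drive Cre in hepatoblasts, the fetal cells that give rise to hepatocytes and bile duct cells, so recombination is restricted to those cells and their descendants. The groups set beside it were Foxa3Cre Pard3HMKO (genotype Foxa3-Cre;Pard3-fl/fl) and Foxa3Cre Pard3WT (genotype Foxa3-Cre) at E17.5. Foxa3Cre Pard3WT was also used at E11.5, E13.5, E15.5 and E19.5 and at the postnatal ages P0 and P14. All were C57BL/6 hepatocytes with no treatment and 2 libraries a group. The study asked what PAR3 does in hepatocyte proliferation, maturation and tissue architecture.

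PAR3, the product of Pard3, is a scaffold that binds PAR6 and atypical protein kinase C and places junctions and the apical domain of epithelial cells. In hepatocytes the apical domain forms the bile canaliculus. During late gestation the liver turns from blood formation to hepatocyte functions: genes of plasma proteins, bile acid synthesis and sugar metabolism are switched on, while fetal and cell division genes are turned down.

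The Pard3HMKO libraries held 36871926 and 41076918 reads and the Pard3WT libraries 32881212 and 33034276. No 2 cells had identical counts. Hepatocyte markers were abundant in all 4 libraries, and all 15 of them were read. At 100000 reads per cell, the median cell held 5657 and 5625 detected genes in the Pard3HMKO libraries, against 5290 and 5044 in the Pard3WT libraries. The 10 most abundant genes took 29.7% and 30.1% of reads in Pard3HMKO, against 35.4% and 37.3% in Pard3WT. Each library held cells with reads of Xist alone, of Y-linked genes alone and of both. The labels do not say that the libraries came from separate animals, so p-values measure only the spread between libraries of a group, which may be technical. That spread was estimated over 44 in vivo Foxa3Cre and AlfpCre libraries fitted together, not over these 4 alone. Those 44 included Foxa3Cre groups labelled YapWT and YapHMKO at E15.5 and E17.5, and Pard3WT YapWT and Pard3HMKO YapHMKO at E17.5. They also included Foxa3Cre Pard3HMKO at E11.5, E13.5, E15.5, E19.5, P0 and P14. The protocol given with the 4 AlfpCre samples describes sorting of early endoderm and gut by EpCAM. How E17.5 liver cells were isolated is not given in the sources used here. Levels below are CPM (counts scaled to library size with TMM factors, the cells of a library summed). Changes are log2 fold changes ± SE of Pard3HMKO over Pard3WT, and called means an adjusted p below 0.05 (edgeR quasi-likelihood test, Benjamini-Hochberg over 18572 genes).

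Pard3 itself (chromosome 8, 127063381 to 127612286, GRCm38) stood at 42.1 and 46.8 CPM in Pard3HMKO, against 28.3 and 43.4 CPM in Pard3WT. It was not called (0.31 ± 0.21, adjusted p = 0.514). Which exons are flanked by loxP sites is not given in the sources used here and reads were counted over the whole gene, so these counts do not test the deletion, and the genotypes rest on the labels.

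Of the genes tested, 5.28% were called: 414 (2.23%) were higher and 566 (3.05%) lower in Pard3HMKO, and 2913 had an unadjusted p below 0.05. The genes that fell included secreted plasma proteins and enzymes of the mature hepatocyte, and those that rose included fetal and pericentral genes. Of 35 gene lists of liver functions, cell division, polarity and signalling, carrier proteins had the largest share of members called lower, followed by complement and coagulation and by gluconeogenesis. With 1 library left out, 619 and 485 genes were called without Pard3HMKO replicate 1 and 2, and 909 and 526 without Pard3WT replicate 1 and 2. Leaving out the cells that held reads for at least 50% of the markers of another cell type (24 and 38 of the Pard3HMKO cells, 30 and 25 of the Pard3WT cells, mostly by the erythroid list) left 185 calls, 56 higher and 129 lower. That fit also lacked 10 libraries of other groups, in which fewer than 5 cells remained, and so rested on 34 libraries. Of the 69 called genes named here, 46 were still called without the cells holding markers of other types. The other 23 kept their direction but were not called: Alb, Asgr1, Ccnb2, Cebpa, Cyp2c69, Cyp7a1, Cyp8b1, Fscn1, Gjb1, H2-Q7, Hamp, Ifit3, Igf2, Irgm2, Isg15, Klf2, Lgr5, Myof, Onecut1, Pcx, Reln, Rsad2 and Trf. Alb, Ccnb2, Ctnnb1, Cyp2c69, Igf2, Isg15, Klf2 and Rsad2 were also not called when only the 4 AlfpCre libraries were fitted, and Fgb, Hamp, Ifit3, Isg15 and Rsad2 were not called when only groups of E17.5 were.

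**Figure D1:**
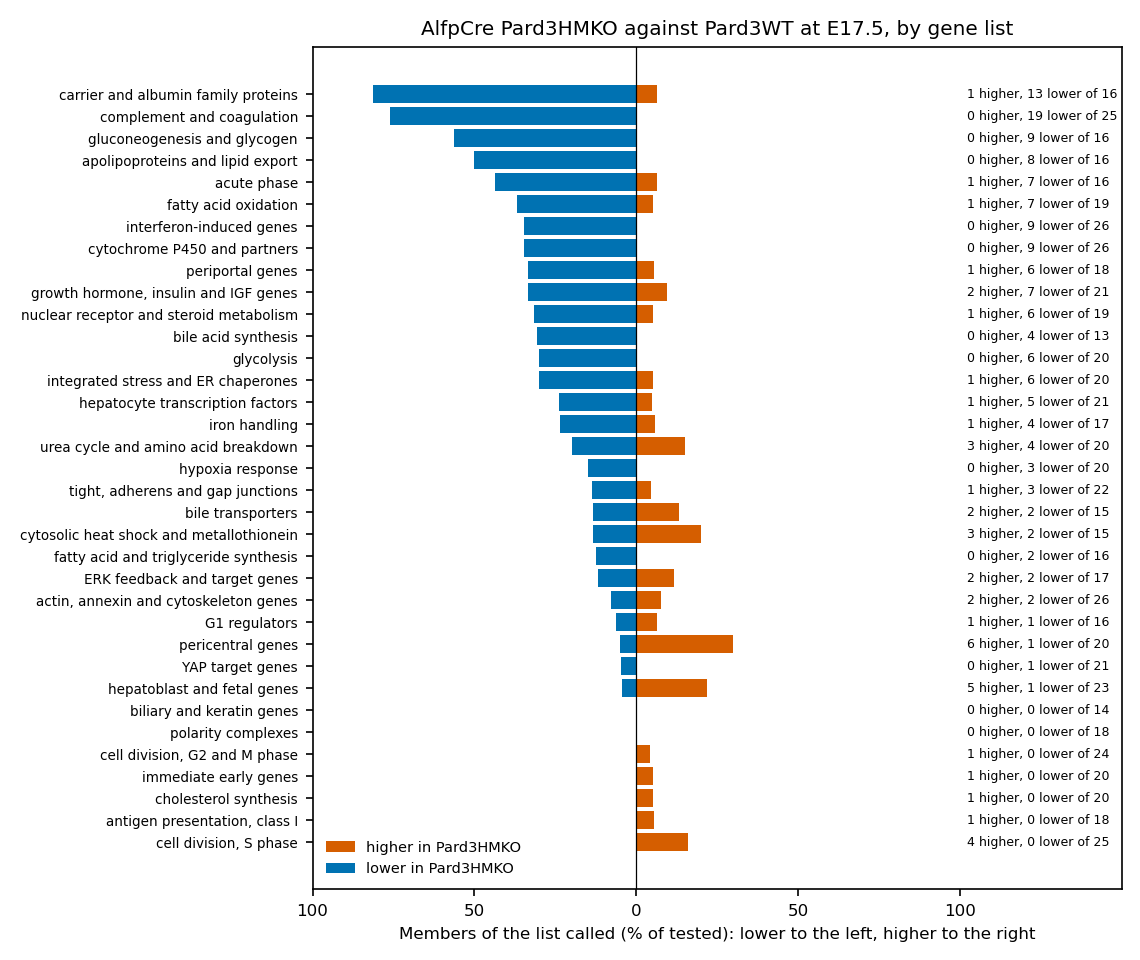
Share of each gene list's tested members called higher (right, orange) or lower (left, blue) in AlfpCre Pard3HMKO than in Pard3WT at E17.5, with the counts printed at the right. Carrier proteins (13 of 16) and complement and coagulation (19 of 25) reach furthest to the left, and pericentral genes (6 of 20) furthest to the right.

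Genes of plasma proteins were the most uniformly lower. Alb, which encodes serum albumin, stood at 77582 and 80695 CPM in Pard3HMKO, against 142881 and 159742 CPM in Pard3WT (−0.94 ± 0.12, adjusted p = 1.54e-05). The groups did not overlap, and the fall was spread over the cells: the median cell held 77629 and 85833 CPM in the Pard3HMKO libraries and 119290 and 119690 CPM in the Pard3WT libraries. Afp, the fetal albumin relative, had 45261 and 47270 CPM in Pard3HMKO, against 54323 and 62898 CPM in Pard3WT, and was not called (−0.34 ± 0.13, adjusted p = 0.149).

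Of 25 complement and coagulation genes, 19 fell and none rose, and the list's median change was −0.69, against 0.00 over all genes tested. Without the cells holding markers of other types, 7 of the list were called lower. Fgb, which encodes the fibrinogen beta chain, had 4471 and 5130 CPM in Pard3HMKO, against 14040 and 15631 CPM in Pard3WT (−1.63 ± 0.16, adjusted p = 5.25e-07). The gamma chain gene Fgg had 3028 and 3612 CPM in Pard3HMKO, against 8962 and 9712 CPM in Pard3WT (−1.49 ± 0.16). F2, which encodes prothrombin, had 1322 and 1328 CPM in Pard3HMKO, against 2227 and 2695 CPM in Pard3WT (−0.89 ± 0.09), and C3, the central complement component, had 1692 and 1802 CPM in Pard3HMKO, against 3317 and 3636 CPM in Pard3WT (−0.99 ± 0.11). In each of these 4 genes both Pard3HMKO libraries lay below both Pard3WT libraries. The libraries did not overlap in 23 of the 25 genes, against 42.4% of all genes tested.

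Of 16 carrier and albumin family genes, 13 fell and 1 rose, and 4 were called lower without the cells holding markers of other types. Ahsg, which encodes fetuin-A, an inhibitor of mineral deposition, had 13946 and 14457 CPM in Pard3HMKO, against 38546 and 49798 CPM in Pard3WT (−1.64 ± 0.19, adjusted p = 4.79e-06), and its relative Fetub had 31.6 and 38.5 CPM in Pard3HMKO, against 254 and 301 CPM in Pard3WT (−2.98 ± 0.38). The exception was Serpina6, which encodes the corticosteroid-binding globulin, with 3580 and 3798 CPM in Pard3HMKO, against 850 and 991 CPM in Pard3WT (2.00 ± 0.21, adjusted p = 1.1e-06). Serpina1a, one of several near-identical alpha-1 antitrypsin genes among which reads may be divided uncertainly, fell by 0.95 on the log2 scale. Without Pard3HMKO replicate 1, 8 carrier genes were called lower.

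Among 16 apolipoprotein and lipid export genes 8 fell, among them Apoc3, an inhibitor of triglyceride clearance (24.3 and 26.6 CPM in Pard3HMKO, against 75.2 and 68.6 CPM in Pard3WT), and Apoh (2813 and 2985 CPM in Pard3HMKO, against 6228 and 7647 CPM in Pard3WT). Of these 8 genes, 2 were called lower without the cells holding markers of other types. Without Pard3WT replicate 2, 4 of them were called. Among 16 acute phase genes 7 fell and 1 rose. Fgl1, a fibrinogen-related secreted protein, was 1 of them, with 24.6 and 22.4 CPM in Pard3HMKO, against 250 and 286 CPM in Pard3WT (−3.51 ± 0.44, adjusted p = 9.41e-06). Serpina3n, a secreted protease inhibitor, had 4.51 and 6.84 CPM in Pard3HMKO, against 53.5 and 83.4 CPM in Pard3WT (−3.59 ± 0.47). Without the cells holding markers of other types, 2 acute phase genes were called lower. Leaving out Pard3HMKO replicate 1, Pard3HMKO replicate 2 or Pard3WT replicate 2 left 4 acute phase genes called lower each time.

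The one acute phase gene that rose was Hamp, which encodes hepcidin, the hormone that limits iron export. It had 247 and 182 CPM in Pard3HMKO, against 15.2 and 27.5 CPM in Pard3WT (3.33 ± 0.97, adjusted p = 0.0469). Single cells carried much of it: the highest cell held 39.5% and 23.4% of its reads in the Pard3HMKO libraries and 54.0% and 41.6% in the Pard3WT libraries. It was called in none of the 4 fits without 1 library, with adjusted p between 0.111 and 0.289. Of 17 iron genes 4 fell, including Cp (ceruloplasmin, which oxidises iron for export; 230 and 264 CPM in Pard3HMKO, against 1025 and 1168 CPM in Pard3WT) and Trf (transferrin; 2260 and 2416 CPM in Pard3HMKO, against 5142 and 5694 CPM in Pard3WT).

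Some enzymes of bile acid and drug metabolism fell. Cyp7a1, the rate-limiting enzyme of bile acid synthesis, had 11.6 and 9.58 CPM in Pard3HMKO, against 63.1 and 101 CPM in Pard3WT (−2.95 ± 0.49, adjusted p = 0.000248). Cyp8b1, which sets the ratio of bile acid species, had 14.65 and 19.498 CPM in Pard3HMKO, against 43.3 and 67.9 CPM in Pard3WT (−1.70 ± 0.27). Of 13 bile acid synthesis genes 4 fell and none rose, 2 were called lower without Pard3HMKO replicate 2 and 0 without the cells holding markers of other types. Slc10a1, which takes bile acids up from blood, had 43.1 and 71.7 CPM in Pard3HMKO, against 338 and 428 CPM in Pard3WT (−2.74 ± 0.32, adjusted p = 3.54e-06). Of 15 bile transporter genes 2 fell and 2 rose. Without the cells holding markers of other types, 1 was called lower and 0 higher.

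Of 26 cytochrome P450 genes and their partners, 9 fell and none rose, with a median change of −1.43, and 5 were called lower without those cells. Cyp2c70, which hydroxylates bile acids in mice, had 84.2 and 103 CPM in Pard3HMKO, against 468 and 515 CPM in Pard3WT (−2.40 ± 0.21). Cyp2c40 had 4.38 and 7.24 CPM in Pard3HMKO, against 97.3 and 119 CPM in Pard3WT (−4.21 ± 0.44), and Cyp2c69 had 0.695 and 3.15 CPM in Pard3HMKO, against 103 and 50.2 CPM in Pard3WT (−5.30 ± 0.71). Members of the Cyp2c cluster are close copies, so reads may be divided uncertainly among them. Of 19 genes of nuclear receptors and steroid metabolism 6 fell and 1 rose, but 1 was called lower without Pard3HMKO replicate 1, 1 without Pard3HMKO replicate 2, 4 without Pard3WT replicate 1, 1 without Pard3WT replicate 2 and 0 without the cells holding markers of other types.

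Of 16 genes of gluconeogenesis and glycogen 9 fell and none rose, and 2 were called lower without the cells holding markers of other types. Fbp1, a gluconeogenic phosphatase, had 152 and 199 CPM in Pard3HMKO, against 1272 and 1418 CPM in Pard3WT (−2.94 ± 0.36, adjusted p = 8.81e-06), and Pcx, which encodes pyruvate carboxylase, had 107 and 111 CPM in Pard3HMKO, against 247 and 288 CPM in Pard3WT (−1.29 ± 0.19). Of 20 glycolysis genes 6 fell and none rose, with 4 called lower without those cells, including Ldha (lactate dehydrogenase A; 1693 and 1425 CPM in Pard3HMKO, against 3182 and 3331 CPM in Pard3WT; −1.06 ± 0.09). Gpi1 was also called lower, both with and without those cells.

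Of 19 fatty acid oxidation genes 7 fell and 1 rose, with a median change of −0.50, and 1 was called lower without the cells holding markers of other types. Of 16 genes of fatty acid and triglyceride synthesis 2 fell and none rose. Of 20 genes of the urea cycle and amino acid breakdown 4 fell and 3 rose, but without Pard3WT replicate 1 the counts were 2 lower and 0 higher. Arg1, the last enzyme of the urea cycle, had 169 and 172 CPM in Pard3HMKO, against 624 and 731 CPM in Pard3WT (−1.99 ± 0.21, adjusted p = 3.19e-07).

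The falls with the smallest adjusted p included genes of enzymes and of a receptor subunit. Pemt, which makes phosphatidylcholine for bile and lipoproteins, came first, with 93.4 and 95.4 CPM in Pard3HMKO, against 436 and 520 CPM in Pard3WT (−2.34 ± 0.16, adjusted p = 1.22e-11). The median cell held 52.6 and 61.6 CPM in the Pard3HMKO libraries and 364 and 383 CPM in the Pard3WT libraries. Asgr1, a subunit of the asialoglycoprotein receptor (18.2 and 17.2 CPM in Pard3HMKO, against 97.2 and 93.8 CPM in Pard3WT; −2.43 ± 0.20), Hsd3b1 (91.9 and 78.4 CPM in Pard3HMKO, against 447 and 428 CPM in Pard3WT; −2.36 ± 0.20) and Uox, the urate oxidase gene (153 and 135 CPM in Pard3HMKO, against 698 and 692 CPM in Pard3WT; −2.27 ± 0.18), showed the same separation. Fn1, which encodes fibronectin, had 1062 and 1151 CPM in Pard3HMKO, against 2188 and 2454 CPM in Pard3WT (−1.07 ± 0.09).

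Receptors and mediators of hormone signalling were among the largest falls. Prlr, which encodes the prolactin receptor, had 1.08 and 0.728 CPM in Pard3HMKO, against 30.3 and 24.3 CPM in Pard3WT (−4.92 ± 0.59, adjusted p = 4.56e-06). Prlr was read in 10.4% and 5.7% of Pard3HMKO cells, against 60.4% and 41.1% of Pard3WT cells, at 100000 reads per cell (at full depth, 17.9% and 15.7% of Pard3HMKO cells, against 71.7% and 57.1% of Pard3WT cells). Klf9, a transcription factor induced by glucocorticoid and thyroid hormone, had 1.39 and 0.752 CPM in Pard3HMKO, against 19.2 and 36.8 CPM in Pard3WT (−4.71 ± 0.72). Eif4ebp3, an inhibitor of translation initiation, had 0.103 and 0.188 CPM in Pard3HMKO, which rest on 12 reads, against 8.83 and 11.3 CPM in Pard3WT (−6.06 ± 0.84, adjusted p = 2.8e-05). Igfbp2, an IGF-binding protein, had 7.57 and 7.05 CPM in Pard3HMKO, against 72.9 and 159 CPM in Pard3WT (−3.99 ± 0.46). Of 21 genes of growth hormone, insulin and IGF signalling 7 fell and 2 rose; 4, 4, 4 and 3 were called lower without Pard3HMKO replicate 1, Pard3HMKO replicate 2, Pard3WT replicate 1 and Pard3WT replicate 2.

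**Figure D2:**
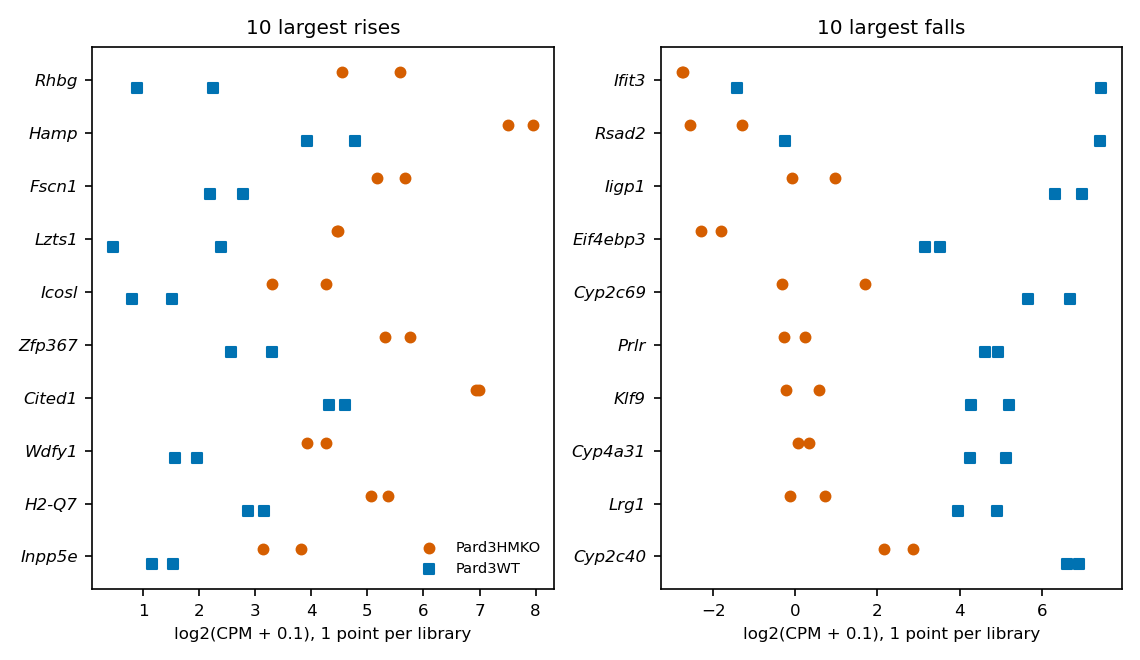
Levels of the 10 genes with the largest rises (left) and the 10 with the largest falls (right), as log2(CPM + 0.1), with 1 point per AlfpCre library and Pard3HMKO (orange circles) above Pard3WT (blue squares) in each row. The groups are apart in every gene drawn, as the rule that picked them required, but Ifit3 and Rsad2 are high in a single Pard3WT library, at 174 and 170 CPM.

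The rises included genes with high levels in the early liver. Fscn1 (chromosome 5, 142960355 to 142973189), whose product bundles actin into filopodia, had 36.0 and 50.6 CPM in Pard3HMKO, against 6.80 and 4.47 CPM in Pard3WT (2.94 ± 0.40, adjusted p = 1.1e-05). It was read in 71.6% and 70.0% of Pard3HMKO cells, against 15.1% and 14.3% of Pard3WT cells, at 100000 reads per cell (at full depth, 80.6% and 77.1% of Pard3HMKO cells, against 32.1% and 23.2% of Pard3WT cells). Cited1, a transcriptional coregulator of progenitor cells, had 122.6 and 126.3 CPM in Pard3HMKO, against 24.1 and 19.8 CPM in Pard3WT (2.50 ± 0.29, adjusted p = 1.09e-06). Dlk1, a surface marker of hepatoblasts, had 1485 and 1584 CPM in Pard3HMKO, against 683 and 730 CPM in Pard3WT (1.12 ± 0.09, adjusted p = 4.67e-10).

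Of 23 hepatoblast and fetal genes 5 rose and 1 fell, and 3 were called higher in each of the 4 fits without 1 library. Igf2bp1, an RNA-binding protein of fetal tissues, was one of them (73.6 and 72.1 CPM in Pard3HMKO, against 36.6 and 37.4 CPM in Pard3WT; 0.98 ± 0.20, adjusted p = 0.00171). The member that fell, Ahsg, is a plasma protein gene. In Foxa3Cre Pard3WT, Fscn1 averaged 144, 39.5, 6.81 and 2.12 CPM at ages E11.5, E15.5, E17.5 and E19.5, and Cited1 averaged 201, 109, 15.4 and 13.8 CPM at the same ages. The AlfpCre Pard3HMKO libraries lay between the E11.5 and E17.5 means in both genes.

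Pericentral genes, which the hepatocytes around the central vein express and of which several are targets of Wnt signalling, were more often higher: of 20, 6 rose and 1 fell, with a median change of 0.73. Rhbg (chromosome 3, 88242874 to 88254739), an ammonium transporter of those cells, had 47.6 and 23.3 CPM in Pard3HMKO, against 1.75 and 4.63 CPM in Pard3WT (3.48 ± 0.41, adjusted p = 1.04e-06). Lect2, a secreted protein regulated by beta-catenin, had 323 and 293 CPM in Pard3HMKO, against 73.5 and 100 CPM in Pard3WT (1.83 ± 0.19). Tbx3, a transcription factor of hepatoblasts and pericentral hepatocytes, had 27.8 and 22.2 CPM in Pard3HMKO, against 6.51 and 7.59 CPM in Pard3WT (1.82 ± 0.27). Gulo, the last enzyme of vitamin C synthesis, had 107 and 84.1 CPM in Pard3HMKO, against 28.1 and 34.9 CPM in Pard3WT (1.60 ± 0.23). In all 4 genes both Pard3HMKO libraries were above both Pard3WT libraries.

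The Wnt-responsive receptor gene Lgr5 had 3.86 and 4.32 CPM in Pard3HMKO, against 0.143 and 0.233 CPM in Pard3WT (adjusted p = 0.000849), and was read in 16.4% and 15.7% of Pard3HMKO cells, against 1.9% and 1.8% of Pard3WT cells, at 100000 reads per cell (at full depth, 23.9% and 18.6% of Pard3HMKO cells, against 3.8% and 1.8% of Pard3WT cells). Axin2, another Wnt target, had 2.09 and 2.26 CPM in Pard3HMKO, against 0.143 and 0.078 CPM in Pard3WT, and missed the threshold (adjusted p = 0.0524). Glul, a defining pericentral enzyme, averaged 104 CPM in Pard3HMKO and 95.2 CPM in Pard3WT (adjusted p = 0.871). Cyp2e1 averaged 8.73 CPM in Pard3HMKO and 26.0 CPM in Pard3WT and was not called either (adjusted p = 0.186). Of 18 periportal genes 6 fell and 1 rose, and 3 were called lower without Pard3WT replicate 1. All 5 of the pericentral genes named as higher (Rhbg, Lect2, Tbx3, Gulo and Lgr5) fell between E15.5 and E19.5 in Foxa3Cre Pard3WT.

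Among 21 hepatocyte transcription factor genes 5 fell and 1, Tbx3, rose. Cebpa, a driver of hepatocyte metabolism genes, had 75.7 and 73.1 CPM in Pard3HMKO, against 156 and 143 CPM in Pard3WT (−1.01 ± 0.13, adjusted p = 1.09e-06). Nr1h4, the bile acid receptor FXR, had 16.2 and 15.3 CPM in Pard3HMKO, against 55.0 and 57.2 CPM in Pard3WT (−1.83 ± 0.28), and Onecut1 had 4.53 and 5.07 CPM in Pard3HMKO, against 17.53 and 30.16 CPM in Pard3WT (−2.31 ± 0.43).

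The calls among cell division genes depended on single libraries. Of 24 G2 and M phase genes 1 was called, Ccnb2, which encodes cyclin B2 (47.5 and 69.0 CPM in Pard3HMKO, against 20.7 and 9.57 CPM in Pard3WT; 1.94 ± 0.41, adjusted p = 0.00336). The summed level of the list was 1674 and 1513 CPM in Pard3HMKO, against 1398 CPM in Pard3WT replicate 1 and 434 CPM in Pard3WT replicate 2. Cdk1, the mitotic kinase gene, showed the same split, with 125 and 108 CPM in Pard3HMKO, against 95.3 and 16.1 CPM in Pard3WT. Of the list, 22 genes were called higher without Pard3WT replicate 1, against 1 without Pard3HMKO replicate 1 and 0 without Pard3HMKO replicate 2, without Pard3WT replicate 2 or without the cells holding markers of other types. In Pard3WT replicate 1 the highest cell held 20.9% of the list's reads, and without that cell the sum was 1106 CPM. The erythroid markers were also highest in that library, at 2390 CPM, against 558 CPM in Pard3WT replicate 2 and 723 and 596 CPM in Pard3HMKO; their part in the result was not tested.

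Of 25 S phase genes 4 rose, and 1, 1, 6 and 0 were called higher without Pard3HMKO replicate 1, Pard3HMKO replicate 2, Pard3WT replicate 1 and Pard3WT replicate 2, and 0 without the cells holding markers of other types. Counted over cells at 100000 reads each, 59.7% and 50.0% of Pard3HMKO cells held reads of at least 50% of the S phase list, against 22.6% and 14.3% of Pard3WT cells (at full depth, 83.6% and 77.1% of Pard3HMKO cells, against 69.8% and 62.5% of Pard3WT cells). For the G2 and M list these shares were 32.8% and 25.7% of Pard3HMKO cells, against 15.1% and 5.36% of Pard3WT cells (at full depth, 49.3% and 50.0% of Pard3HMKO cells, against 37.7% and 14.3% of Pard3WT cells). Both Pard3HMKO libraries were above both Pard3WT libraries in each of these shares, and no test was made over cells. Ccnd1, the cyclin of G1 progression, had 47.0 and 41.0 CPM in Pard3HMKO, against 12.7 and 16.7 CPM in Pard3WT (1.58 ± 0.22, adjusted p = 5.22e-06), and was called in all 4 fits without 1 library.

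None of 18 genes of the polarity complexes was called by edgeR (median change 0.19), with 1 at an unadjusted p below 0.05 and 0 called by DESeq2. None of 14 biliary and keratin genes was called by edgeR, with 4 at an unadjusted p below 0.05 and 1 called by DESeq2. Pard6b, whose product binds PAR3, had 6.00 and 7.61 CPM in Pard3HMKO, against 3.29 and 3.93 CPM in Pard3WT (0.91 ± 0.47, adjusted p = 0.343). Of 22 junction genes 3 fell and 1 rose, against 5.28% of all genes called. Called lower were 1 junction gene without Pard3HMKO replicate 2, 2 without Pard3WT replicate 2 and 0 without the cells holding markers of other types, and none was called higher without Pard3HMKO replicate 2 or Pard3WT replicate 1. Gjb1, the main hepatocyte gap junction gene, had 193 and 191 CPM in Pard3HMKO, against 314 and 360 CPM in Pard3WT (−0.81 ± 0.13, adjusted p = 5.29e-05). Tmsb10, which binds actin monomers, had 462 and 389 CPM in Pard3HMKO, against 1474 and 1487 CPM in Pard3WT (−1.80 ± 0.24) and was 1 of 4 cytoskeleton genes called among 26 (2 higher, 2 lower; 6 were called higher without Pard3WT replicate 1, 1 without Pard3WT replicate 2 and 0 without the cells holding markers of other types). Of 21 YAP target genes 1 was called, Myof, which was lower and was not called without Pard3HMKO replicate 1 (adjusted p = 0.0776) or replicate 2 (adjusted p = 0.0605). Of 17 genes of ERK feedback and targets 2 rose and 2 fell, with 1 called lower without Pard3HMKO replicate 2, without Pard3WT replicate 1 or without the cells holding markers of other types. Etv5, a transcription factor induced by ERK signalling, had 9.37 and 9.82 CPM in Pard3HMKO, against 0.823 and 1.13 CPM in Pard3WT (3.30 ± 0.48, adjusted p = 1.25e-05). Phlda1 had 4.61 and 7.19 CPM in Pard3HMKO, against 30.9 and 31.8 CPM in Pard3WT (−2.41 ± 0.45).

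Interferon-induced genes were lower in Pard3HMKO in 2 patterns, one across many control cells and one from a single control cell. Of 26 tested, 9 were called lower and none higher; without Pard3HMKO replicate 1, Pard3HMKO replicate 2, Pard3WT replicate 1 and Pard3WT replicate 2 the counts were 3, 3, 4 and 12. Their products include the immunity-related GTPases, which are induced by interferon gamma, and antiviral proteins such as Rsad2, Ifit3 and Isg15. The promoters of the members with the smallest adjusted p after Iigp1 are shown from RefSeq (GRCm38.p6, 250 bases before to 50 after the gene start, 5′ to 3′ on the gene's strand) to show where they hold an element bound by interferon regulatory factors; capitals mark GAAA, any 2 bases and GAAA, read on either strand, with overlapping matches joined.
Igtp, chr11:58199306-58199605, plus strand: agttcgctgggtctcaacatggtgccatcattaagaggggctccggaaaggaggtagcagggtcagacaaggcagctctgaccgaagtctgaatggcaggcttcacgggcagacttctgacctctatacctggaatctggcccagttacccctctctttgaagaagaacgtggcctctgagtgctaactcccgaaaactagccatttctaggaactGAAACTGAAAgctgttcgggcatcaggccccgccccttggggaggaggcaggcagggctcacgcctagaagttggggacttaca
Ifi47, chr11:49076337-49076636, plus strand: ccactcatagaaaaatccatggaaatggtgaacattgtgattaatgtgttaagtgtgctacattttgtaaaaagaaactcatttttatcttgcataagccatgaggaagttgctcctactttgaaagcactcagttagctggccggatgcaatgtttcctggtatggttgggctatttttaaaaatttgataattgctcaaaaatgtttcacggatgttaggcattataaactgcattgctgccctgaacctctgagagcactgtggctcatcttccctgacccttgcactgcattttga
Isg15, chr4:156200769-156201068, minus strand: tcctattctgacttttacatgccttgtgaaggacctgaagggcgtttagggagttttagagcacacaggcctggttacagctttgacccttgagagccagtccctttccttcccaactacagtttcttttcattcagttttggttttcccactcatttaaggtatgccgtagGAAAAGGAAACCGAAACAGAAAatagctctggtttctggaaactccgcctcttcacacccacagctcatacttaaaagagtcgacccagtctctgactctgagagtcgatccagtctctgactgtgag
Igtp held 1 match, Isg15 held 3 overlapping matches and Ifi47 held none. The motif stood in the promoters of 7 of the 8 called members found in the reference table, 9 of the 14 members not called and found there, and in 3.44% of all 32851 promoters of that length. The 7 include Isg15, Rsad2 and Ifit3, which were not called without the cell of highest interferon share in each library. Of the 13 complement and coagulation genes that fell and had a promoter in the table, none held a palindromic form of the HNF1 site (GTTAAT, any base, ATTAAC), which stood in 3 of all 32851 promoters. So rare an exact form cannot tell whether these genes hold HNF1 sites. The closest stretch had 2 mismatches in F2, 2 in Fgb and 5 in C3.

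The first pattern was broad. Iigp1, an immunity-related GTPase, had 0.850 and 1.86 CPM in Pard3HMKO, against 125.8 and 79.6 CPM in Pard3WT (−6.23 ± 0.59, adjusted p = 1.89e-07). Igtp had 10.1 and 7.75 CPM in Pard3HMKO, against 70.6 and 41.4 CPM in Pard3WT (−2.65 ± 0.36), and Ifi47 had 2.21 and 2.65 CPM in Pard3HMKO, against 43.0 and 30.3 CPM in Pard3WT (−3.91 ± 0.65). Iigp1 was read in 7.46% and 14.3% of Pard3HMKO cells, against 66.0% and 64.3% of Pard3WT cells, at 100000 reads per cell (at full depth, 10.4% and 28.6% of Pard3HMKO cells, against 86.8% and 76.8% of Pard3WT cells). Cells with reads of at least 2 of the 4 GTPases Iigp1, Igtp, Irgm2 and Ifi47 made up 25.4% and 25.7% of Pard3HMKO cells, against 92.5% and 83.9% of Pard3WT cells, at that depth (at full depth, 38.8% and 48.6% of Pard3HMKO cells, against 100% and 96.4% of Pard3WT cells). In Pard3WT replicate 1 a single cell held 48.8% of the reads of these 4 genes. Without the highest cell of each library they summed to 27.0 and 26.3 CPM in Pard3HMKO, against 150 and 189 CPM in Pard3WT. Both Pard3WT libraries were high in all 4, but Irgm2 was not called without Pard3HMKO replicate 1 or Pard3HMKO replicate 2. Iigp1, Igtp and Ifi47 were called in every fit without 1 library and without each gene's highest cell.

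The second pattern was 1 cell. Ifit3 had 0.0515 and 0.047 CPM in Pard3HMKO, against 174 and 0.272 CPM in Pard3WT, and Rsad2 had 0.309 and 0.0705 CPM in Pard3HMKO, against 170 and 0.739 CPM in Pard3WT. A single cell of Pard3WT replicate 1 gave 98.6% of that library's Ifit3 reads, 98.3% of its Rsad2 reads and 95.1% of its Isg15 reads. That cell had 1244856 reads, of which 2.32% came from the interferon list, with reads for all 27 of the listed genes in the table. Its Iigp1 level was 1733 CPM, its Alb level was 117343 CPM and it had no read of Ptprc, the pan-leukocyte marker. Without the highest cell of each library, the 23 listed genes other than the 4 GTPases summed to 129 and 136 CPM in Pard3HMKO, against 149 and 145 CPM in Pard3WT. With the highest interferon cell of every library left out, 5 of the list were called lower, and Ifit3, Rsad2 and Isg15 were not among them. The levels of these 3 genes in Pard3WT replicate 2 lay between 0.272 and 1.13 CPM.

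**Figure D3:**
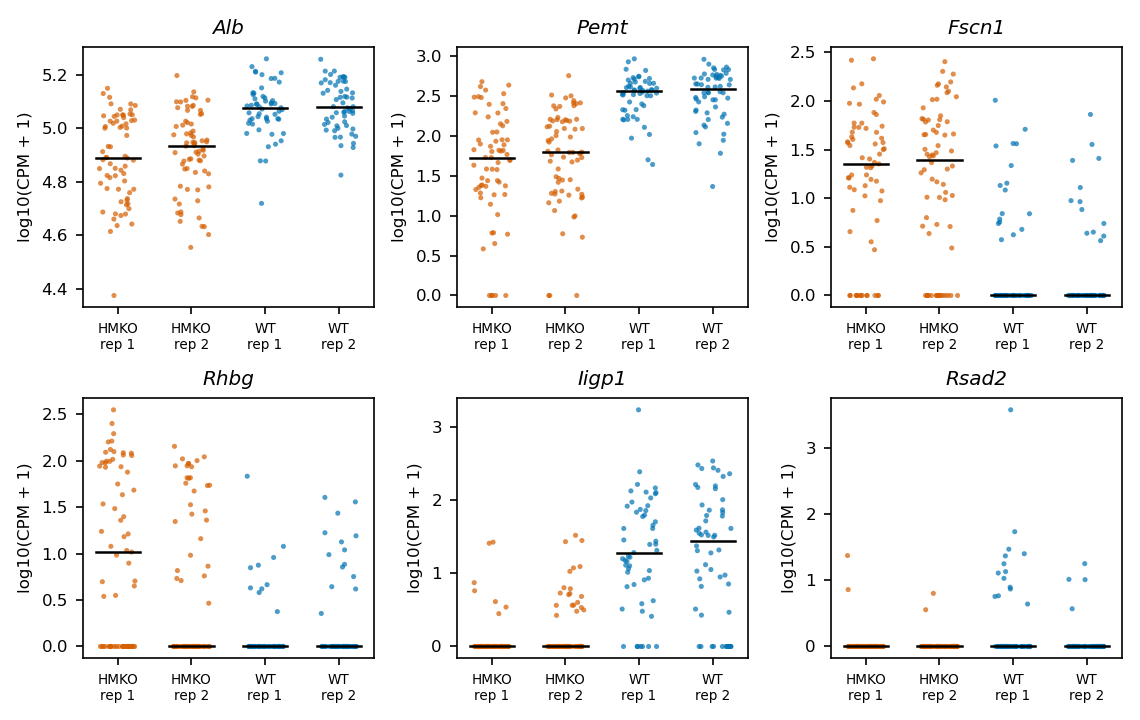
Levels of 6 genes in single cells, as log10(CPM + 1), in the 2 Pard3HMKO libraries (orange, 67 and 70 cells) and the 2 Pard3WT libraries (blue, 53 and 56 cells), with a black line at each library's median cell. Alb, Pemt and Iigp1 are lower and Fscn1 and Rhbg higher across many Pard3HMKO cells, whereas Rsad2 is high in a single Pard3WT cell, at 3751 CPM.

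The changes were set beside the course of development in livers that share no library with them: Foxa3Cre Pard3WT at E19.5 against E15.5, where 21.5% of genes were called, 2093 (11.3%) higher and 1906 (10.3%) lower at E19.5. Of the 566 genes lower in AlfpCre Pard3HMKO, 479 (84.6%) were among those that rose with age, which is 22.9% of the rising genes, and 7 were among those that fell. Of the 414 genes higher in Pard3HMKO, 286 (69.1%) were among those that fell with age, which is 15.0% of the falling genes, and 8 were among those that rose. Pemt, for one, averaged 20.7, 827 and 960 CPM at ages E15.5, E17.5 and E19.5 in Foxa3Cre Pard3WT, and Fbp1 averaged 42.0, 2295 and 1927 CPM. The age comparison also called 15 of 16 macrophage and myeloid markers higher at E19.5. Cells with Xist but no Y-linked reads numbered 0 and 0 in its E15.5 libraries, against 23 and 22 in its E19.5 libraries. The part of other cell types and of sex in the shared genes was not tested.

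Placed on that course, the 2093 rising genes had a median level (log2(CPM + 1), relative to the E15.5 mean) of 0.53 and 0.54 in AlfpCre Pard3HMKO, against 0.89 and 0.94 in AlfpCre Pard3WT. The values were 0.35 and 0.27 in Foxa3Cre Pard3HMKO, against 0.75 and 0.80 in Foxa3Cre Pard3WT, and 1.15 and 1.16 in Foxa3Cre Pard3WT at E19.5. The 1906 falling genes stood at −0.47 and −0.45 in AlfpCre Pard3HMKO, against −0.76 and −0.84 in AlfpCre Pard3WT. In the Foxa3Cre line they stood at −0.26 and −0.20 in Pard3HMKO, against −0.52 and −0.58 in Pard3WT at E17.5. Foxa3Cre Pard3WT also lay below the E15.5 mean at E11.5 (−0.10 and −0.12) and E13.5 (−0.29 and −0.24). The rising genes stood at 0.09 and 0.06 in Foxa3Cre Pard3WT at E13.5, 0.99 and 0.98 at P0 and 0.89 and 0.87 at P14. Neither set thus orders the ages outside E15.5 to E19.5. In both sets the 2 AlfpCre Pard3HMKO libraries lay between E15.5 and their own controls. Exceptions included Mt1, which was higher in Pard3HMKO and rises with age (0.46), and H2-Q7, a member of a family of close class I copies (41.2 and 33.6 CPM in Pard3HMKO, against 8.83 and 7.20 CPM in Pard3WT; 2.22 ± 0.36), which also rises with age.

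**Figure D4:**
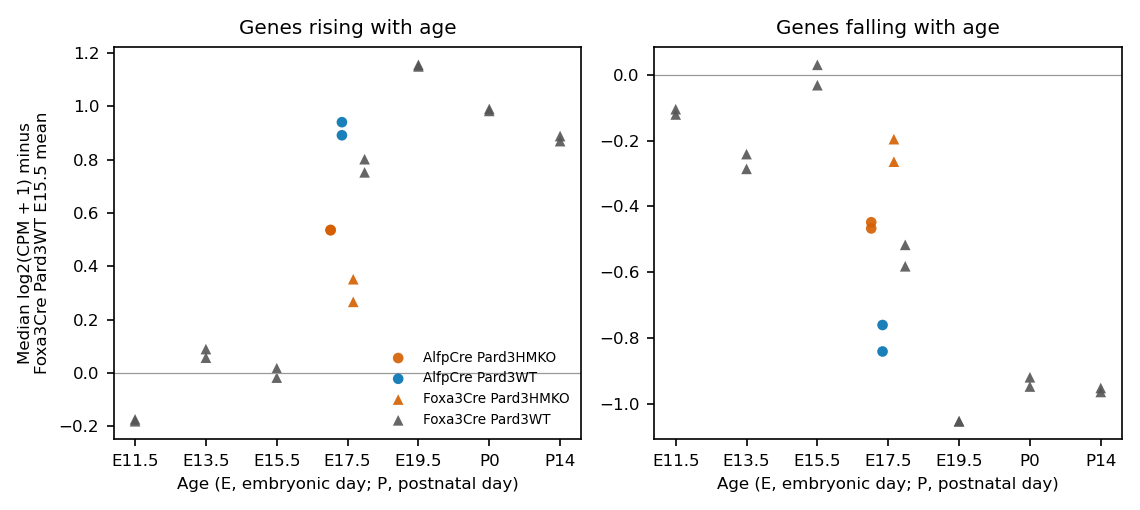
Median level per library of the 2093 genes that rose (left) and the 1906 that fell (right) between E15.5 and E19.5 in Foxa3Cre Pard3WT, as log2(CPM + 1) relative to the E15.5 mean, by age. At E17.5 the AlfpCre Pard3HMKO libraries (orange circles, 0.53 and 0.54 for the rising genes) lie nearer to E15.5 than the AlfpCre Pard3WT libraries (blue circles, 0.89 and 0.94).

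The Foxa3Cre deletion at the same age, in other libraries, called 2776 genes (14.9%; 7.09% higher and 7.86% lower). Of the genes called lower with AlfpCre 414 (73.1%) were also lower with Foxa3Cre, which is 28.4% of the genes lower there, and of those called higher 209 (50.5%) were also higher, which is 15.9% of the genes higher there. The difference between the effects was called for 540 genes (2.91%), 307 (1.65%) more positive and 233 (1.25%) more negative with AlfpCre. It was called for 221 genes without AlfpCre Pard3HMKO replicate 2, 305 without AlfpCre Pard3WT replicate 1, 218 without Foxa3Cre Pard3HMKO replicate 2 and 304 without Foxa3Cre Pard3WT replicate 2. Without the cells that held markers of other types it was called for 42 genes. Of the 24 genes named here with a called difference, 2 remained so without those cells, Mt1 and Eif4ebp3. With all cells the difference was not called for Alb (0.36 ± 0.17, adjusted p = 0.349), Fgb, Serpina6, Dlk1, Rhbg, Fscn1 or Cited1. The controls themselves differed in 18.8% of genes (9.69% higher and 9.15% lower in AlfpCre Pard3WT than in Foxa3Cre Pard3WT). Cells with Xist but no Y-linked reads numbered 16 and 23 in AlfpCre Pard3HMKO and 9 and 15 in AlfpCre Pard3WT, against 0 and 1 in Foxa3Cre Pard3HMKO and 0 and 0 in Foxa3Cre Pard3WT, and the part of these cells in the differences was not tested.

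The metallothionein genes, whose products bind zinc and copper, moved in opposite directions. Mt2 had 3693 and 4211 CPM in AlfpCre Pard3HMKO, against 1121 and 1279 CPM in AlfpCre Pard3WT (1.72 ± 0.14, adjusted p = 3.01e-08). In the Foxa3Cre line Mt2 had 3285 and 3301 CPM in Pard3HMKO, against 5466 and 4594 CPM in Pard3WT (−0.61, adjusted p = 0.00297). Mt1 had 24396 and 24077 CPM in AlfpCre Pard3HMKO, against 12270 and 14530 CPM in AlfpCre Pard3WT (0.86 ± 0.08), and 11426 and 11540 CPM in Foxa3Cre Pard3HMKO, against 19222 and 17311 CPM in Foxa3Cre Pard3WT (−0.66). The difference was 2.33 for Mt2 (adjusted p = 2.19e-07) and 1.52 for Mt1 (adjusted p = 5.18e-07). The Pard3HMKO levels of Mt2 were alike in both lines and the control levels were not.

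Hamp also moved in opposite directions (difference 6.56, adjusted p = 0.00829, and not called without AlfpCre Pard3WT replicate 1 or Foxa3Cre Pard3HMKO replicate 1), with 9.95 and 31.4 CPM in Foxa3Cre Pard3HMKO, against 244 and 141 CPM in Foxa3Cre Pard3WT. Igf2, the fetal growth factor gene, rose with AlfpCre (2048 and 1994 CPM in Pard3HMKO, against 1489 and 1645 CPM in Pard3WT; 0.37 ± 0.07) and fell with Foxa3Cre (1190 and 1074 CPM in Pard3HMKO, against 1400 and 1470 CPM in Pard3WT), a difference of 0.71 (adjusted p = 3.76e-05); with no filter on low counts its rise with AlfpCre was not called. Ccnd1 rose in both lines but by less with AlfpCre, a difference of −1.93 (adjusted p = 0.000196), and so did Ctnnb1, the beta-catenin gene (158 and 180 CPM in AlfpCre Pard3HMKO, against 108 and 122 CPM in AlfpCre Pard3WT, and 163 and 186 CPM in Foxa3Cre Pard3HMKO, against 55.1 and 58.3 CPM in Foxa3Cre Pard3WT; difference −1.07, adjusted p = 0.000107). Ctnnb1 was not called in the AlfpCre line without Pard3HMKO replicate 2 (adjusted p = 0.088) or Pard3WT replicate 1 (adjusted p = 0.0601).

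The change of Iigp1 was more negative with AlfpCre than with Foxa3Cre (difference −5.10, adjusted p = 0.000148), where it was not called and had 19.3 and 16.9 CPM in Pard3HMKO, against 50.6 and 29.1 CPM in Pard3WT. Eif4ebp3 (difference −5.38), Cyp2c69 (−5.88), Prlr (−3.49) and Klf9 (−3.51) also had more negative changes with AlfpCre, and of these 4 genes Prlr alone was called lower with Foxa3Cre. The difference was not called for Prlr without AlfpCre Pard3HMKO replicate 2, nor for Klf9 without AlfpCre Pard3HMKO replicate 1, AlfpCre Pard3HMKO replicate 2, AlfpCre Pard3WT replicate 2, Foxa3Cre Pard3HMKO replicate 1 or Foxa3Cre Pard3WT replicate 1. Jun, an immediate early transcription factor that dissociation of tissue can induce, was not called with AlfpCre (118 and 131 CPM in Pard3HMKO, against 63.3 and 111 CPM in Pard3WT) and had 72.6 and 59.9 CPM in Foxa3Cre Pard3HMKO, against 175 and 184 CPM in Foxa3Cre Pard3WT, a difference of 1.95 (adjusted p = 5.53e-05). Of 20 immediate early genes 1, Klf2, was higher (not called without Pard3WT replicate 1) and none lower with AlfpCre, and none was higher and 10 were lower with Foxa3Cre.

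**Figure D5:**
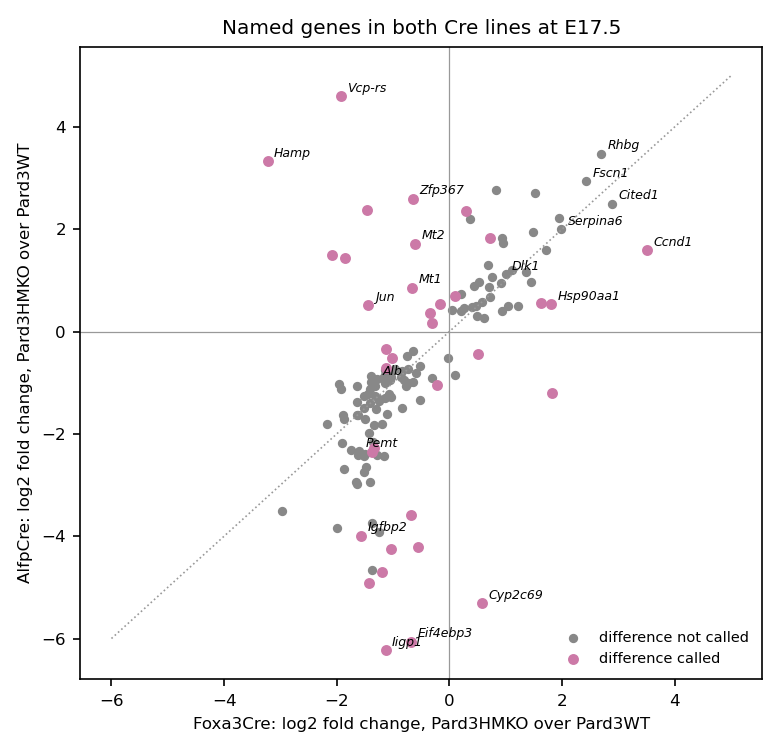
Log2 fold change of Pard3HMKO over Pard3WT at E17.5 in the AlfpCre line (vertical) against the Foxa3Cre line (horizontal) for named genes of at least 10 CPM in a group, leaving out Ifit3, Rsad2, Isg15, H2-Ab1, Xist and genes named only as cell type markers. Pink points mark genes whose difference between the lines was called, such as Hamp (3.33 with AlfpCre, −3.23 with Foxa3Cre) and Mt2 (1.72 and −0.61), and the dotted line marks equal changes.

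Markers of other cell types gave few calls. By edgeR no gene was called of 14 erythroid, 16 macrophage and myeloid, 15 endothelial, 8 biliary and 12 megakaryocyte and lymphoid genes. An unadjusted p below 0.05 was reached by 1 erythroid, 1 macrophage and myeloid, 3 endothelial, 3 biliary and 0 megakaryocyte and lymphoid genes, and DESeq2 called 1 macrophage and myeloid and 1 biliary gene. The 1 stellate marker called was Reln (94.0 and 94.4 CPM in Pard3HMKO, against 53.2 and 42.5 CPM in Pard3WT; 0.98 ± 0.21), which was not called without Pard3WT replicate 2. The summed macrophage and myeloid markers were 36.4 and 83.2 CPM in Pard3HMKO, against 181 and 182 CPM in Pard3WT. Endothelial markers summed to 21.4 and 25.9 CPM in Pard3HMKO, against 19.6 and 20.7 CPM in Pard3WT, and biliary markers to 90.9 and 85.4 CPM in Pard3HMKO, against 123 and 127 CPM in Pard3WT. The stellate sum was 98.96 and 130.1 CPM in Pard3HMKO, against 126.4 and 54.5 CPM in Pard3WT, and the megakaryocyte and lymphoid sum was 3.14 and 2.02 CPM in Pard3HMKO, against 2.61 and 2.57 CPM in Pard3WT. The endothelial marker Tek, 4 biliary markers including Cftr and Sctr, and 3 lymphoid markers had no read in the 4 libraries. The lower macrophage sum goes with the genes lower in Pard3HMKO, and its part in them was not tested.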

How the data were processed

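Single-cell RNA libraries were made with Smart-seq3xpress, per the labels' protocols. The authors deposited a table of read counts per gene and cell; the sources used here state neither the counting tool nor whether copies of a molecule were merged. The submitters' processing notes name FastQC 0.11.9, Trimmomatic 0.39 and HISAT2 2.1.0 and the builds GRCm38 and mm10. Counts on spike-in entries (92 entries, 17 reads) and 2267 cell columns were not used.

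Cells were summed per library, and 44 in vivo Foxa3Cre and AlfpCre libraries (22 groups of 2) were fitted together with edgeR 4.0.16 in R 4.3.3 (filterByExpr, TMM, robust quasi-likelihood F test, Benjamini-Hochberg adjustment), which tested 18572 of 40824 genes. SE is the absolute log2 fold change over the square root of F. Read totals per library are in the report; intervals are not given for shares of cells, which cover 53 to 70 cells a library. For shares of cells, each cell was also thinned to 100000 reads. The script was tested on simulated data.

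Named genes were Pard3, Alb and Afp, the 10 largest rises and falls and the 6 of each with the smallest adjusted p (10 CPM in a group, no overlap), up to 4 genes per list by adjusted p, and the 5 largest differences between the lines in each direction. Axin2, Cyp2e1, Glul, Irgm2, Lgr5, Ptprc and Tek fall outside this rule and were chosen after their values were seen. The members, lists and tests were chosen with earlier results of these data known. Alternatives were DESeq2 1.42.0 and its size factors, no filter, fewer libraries, a replicate block, thinned cells, cells with markers of other types left out and each library left out; leaving out the highest interferon cell of each library, or each gene's highest cell, was chosen after seeing the data. Some results are not reported here.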

Additional observations from a re-analysis of the deposited data

Results flagged for a closer look

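The effect of the deletion differed between AlfpCre and Foxa3Cre, by the interaction term of the same edgeR fit, for 540 genes. The values below are log2 fold changes of Pard3HMKO over Pard3WT with AlfpCre minus those with Foxa3Cre. They were more positive with AlfpCre for Hamp (6.56), Mt2 (2.33), Jun (1.95), Mt1 (1.52), Lect2 (1.10), Afp (0.78) and Igf2 (0.71). They were more negative for Cyp2c69 (−5.88), Eif4ebp3 (−5.38), Iigp1 (−5.10), Cyp2c40 (−3.66), Klf9 (−3.51), Prlr (−3.49), Serpina3n (−2.91), Igfbp2 (−2.42), Ccnd1 (−1.93), Ctnnb1 (−1.07), Hsd3b1 (−0.99) and Uox (−0.94). Without the cells holding markers of other types, Mt1 and Eif4ebp3 alone among these genes kept a called difference. With 1 library left out, at least 1 fit no longer called the difference for Afp, Hamp, Hsd3b1, Igfbp2, Klf9, Lect2, Prlr, Serpina3n and Uox.

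The values for Ifit3 (−19.97), Rsad2 (−17.16) and Isg15 (−6.20) were not called without the highest interferon cell of each library, and no direction is drawn from them. Xist (−7.81) and H2-Ab1, a class II gene (−11.33), also differed, and Xist was read in almost no Foxa3Cre Pard3WT cell. Members of the Cyp2c cluster are close copies whose reads may be divided uncertainly.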

How the results depend on the processing

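The AlfpCre comparison called 980 genes, 578 with only the 4 libraries fitted (156 higher, 422 lower) and 185 without cells holding markers of other types (56 higher, 129 lower), and 485 to 909 with 1 library left out. The share of calls that were higher was 42.2%, against 27.0% and 30.3% under the first 2 of these. It was 33.0% with DESeq2 size factors, 34.4% with the DESeq2 test, 34.0% with only groups of E17.5 and 34.3% with thinned cells. With no filter it was 45.4%, and without the highest interferon cell of each library 43.0%. More genes were called with the DESeq2 test (1310), with no filter (1398) and with only groups of E17.5 (1240). The Foxa3Cre comparison called 2776 genes, 952 without the marked cells and 1605 to 2182 with 1 library left out. The difference between the lines was called for 540 genes, 890 with no filter, 140 with only the libraries compared, 42 without the marked cells, 339 with the replicate block and 218 to 433 with 1 library left out. The controls of the lines differed in 3499 genes, 1576 without the marked cells and 2323 with the replicate block. The age comparison called 3999 genes, 2324 without the marked cells and 2610 with the replicate block. The cause of these shifts was not tested, except that leaving out cells or libraries leaves less data.

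The replicate numbers did not pair the AlfpCre libraries (r = 0.05 over 6660 genes, which are not independent replicates), and with the replicate block 801 genes were called in that comparison. With the block the AlfpCre call was lost for 4 of the 69 named genes (Hamp, Ifit3, Igf2 and Isg15), and the difference between the lines was not called for 9 of the 24 named genes called there (Afp, Eif4ebp3, Hamp, Igfbp2, Isg15, Klf9, Lect2, Prlr and Uox). Over the 14 alternatives, 77.4% to 91.5% of genes lower in Pard3HMKO rose with age and 64.4% to 82.7% of those higher fell with age. No named gene that was called reversed its direction under any alternative. With 2 libraries a group, 1 cell could decide a gene.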
